A study of Mus musculus with 8 samples.

Results

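The hypocretin and melanin-concentrating hormone (MCH) systems were followed across 4 hypothalamic nuclei through 5 genes, namely the peptide precursors *Hcrt* and *Pmch* and the receptors *Hcrtr1*, *Hcrtr2*, and *Mchr1*. Every probe whose RefSeq accession belongs to one of these genes was taken, whatever its signal, which gave 5 of the 20280 genes named and 6 of the 55681 probes on the array. *Hcrtr1* had 2 probes and each other gene had 1. The RNA came from the arcuate nucleus (Arc), the ventromedial nucleus (VMH), the dorsomedial nucleus (DMH), and the lateral hypothalamus (LH) of C57BL/6 female mice (C57BL/6J in the methods) at 3 months of age, with no treatment or transgene named for any group. Laser microdissection cuts a marked area out of a tissue section, so each sample held all cell types of that area. The methods name 2 mice as the source, each nucleus had 2 arrays (Arc1 and Arc2, VMH1 and VMH2, DMH1 and DMH2, LH1 and LH2), and the labels do not tie an array to an animal. The p-values therefore measure the spread between these arrays, and in such bulk samples fewer cells of a type and less RNA per cell cannot be told apart.

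Hypocretin, also called orexin, is made by a small group of neurons in the lateral and perifornical hypothalamus that project widely through the brain and sustain wakefulness and feeding. Loss of these neurons underlies narcolepsy with cataplexy. The precursor encoded by *Hcrt* is cut into orexin-A and orexin-B, of which *Hcrtr1* encodes the receptor that prefers orexin-A and *Hcrtr2* the receptor that binds both. MCH neurons lie among the hypocretin neurons and in the zona incerta but are separate cells, and they are known for promoting feeding and rapid eye movement sleep. *Pmch* encodes the MCH precursor and *Mchr1* the only MCH receptor of rodents.

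The sequences just before the start sites of *Hcrt* and *Pmch* are shown because these are the members whose signals were high in the same nuclei, and that of *Hcrtr1* because its signal was highest elsewhere. They are the 250 bases before the annotated start in RefSeq on build GRCm38.p6, read 5′ to 3′ on the strand of the gene, with capitals marking matches on either strand to TATAAA (the TATA box), CAAGTG (a site bound by NKX2-1, a homeobox factor of the hypothalamus), and AGGTCA (a half-site of nuclear receptors). *Hcrt* is on the minus strand at chr11:100762932-100763181, *Pmch* on the plus strand at chr10:88090822-88091071, and *Hcrtr1* on the minus strand at chr4:130139163-130139412.

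Hcrt: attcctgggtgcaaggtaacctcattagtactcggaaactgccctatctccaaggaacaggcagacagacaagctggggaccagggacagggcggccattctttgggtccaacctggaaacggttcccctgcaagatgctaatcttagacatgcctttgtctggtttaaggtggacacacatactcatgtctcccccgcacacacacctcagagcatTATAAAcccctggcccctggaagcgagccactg

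Pmch: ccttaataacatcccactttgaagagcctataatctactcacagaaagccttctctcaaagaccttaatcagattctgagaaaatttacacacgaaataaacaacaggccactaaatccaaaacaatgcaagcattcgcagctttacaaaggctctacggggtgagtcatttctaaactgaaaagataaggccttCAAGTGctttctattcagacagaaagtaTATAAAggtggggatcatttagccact

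Hcrtr1: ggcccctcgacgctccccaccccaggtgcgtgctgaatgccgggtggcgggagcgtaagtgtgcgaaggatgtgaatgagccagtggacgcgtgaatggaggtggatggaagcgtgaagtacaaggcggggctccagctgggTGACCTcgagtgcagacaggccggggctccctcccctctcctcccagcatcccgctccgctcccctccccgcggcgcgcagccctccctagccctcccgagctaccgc

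TATAAA began 33 bases before the start of *Hcrt* and 27 bases before that of *Pmch*. CAAGTG was present in *Pmch* only among the 5 genes, 55 bases before the start. The match in *Hcrtr1* was TGACCT, the reverse complement of AGGTCA, at 108 bases before the start, and the windows of the other *Hcrtr1* starts held none of the letters searched. *Hcrtr2* held AGGTCA at 170 bases before its start, and *Mchr1* held none of the letters. Of 32851 windows of the same length in the annotation, 12.4% held TATAAA, 11.6% CAAGTG, and 14.02% AGGTCA on either strand, so a match somewhere in the window is common. Matches at the places and on the strands found here were not counted over all windows. The 3 motifs do not overlap in any window shown. The place of each probe within its transcript was not analysed here.

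The values below are scaled signals, which are the deposited spot signals averaged per probe and divided by a factor that brings the 75th percentile of every array to the same level. A probe counts as measured on an array where the scanner software called it well above background. The lowest scaled signal so called lay between 79.3 on LH1 and 132 on LH2, and 0 spots were saturated. Differences are on the log2 scale and were tested with limma in a single fit of all 8 arrays over the 28896 probes measured on both arrays of at least 1 nucleus. A signal is not compared between probes, since each probe binds with its own strength.

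Of the 6 member probes, 5 passed the filter and 4 of these differed among the nuclei at an adjusted p under 0.05, namely those of *Hcrt*, *Pmch*, and *Hcrtr1*. Over all probes tested the same F-test called 8.34%. Over the 6 pairs of nuclei the 5 probes gave 16 calls in 30 comparisons. The LH and the Arc differed in 4 of 5 member probes, against 9.34% of all probes, and the LH and the VMH in 3 of 5, against 5.28%. The VMH and the Arc differed in 3 of 5 (all probes, 5.92%), the DMH and the VMH in 4 of 5 (2.04%), and the DMH and the Arc in 2 of 5 (1.26%). Between the LH and the DMH limma called 0 of 5 member probes and 0.924% of all probes, with 3 of 5 members at an unadjusted p under 0.05 and 0 of 5 called by the unmoderated test. The unmoderated test called 10 of the 30, and between the DMH and the VMH 0 of 5, so that the 4 calls there rested on the moderated fit. The comparisons share arrays and are not independent of each other.

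**Figure D1:**
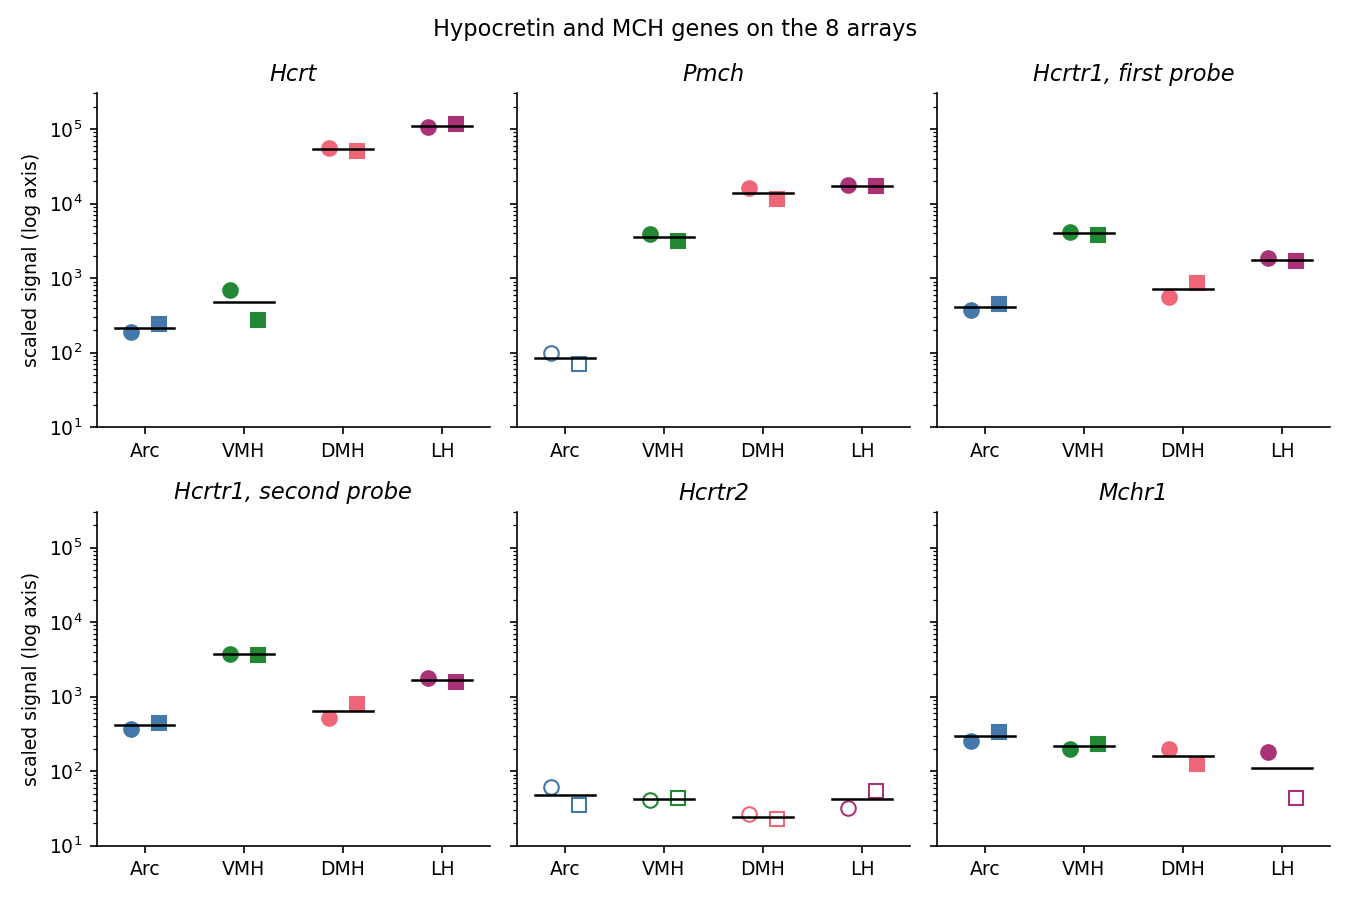
Scaled signal (log axis) of each member probe in the 4 nuclei. Circles are the arrays numbered 1 and squares those numbered 2, open symbols are arrays on which the probe was not well above background, and bars are means of 2 arrays. *Hcrt* stood at 51283 or more in the DMH and LH and at 684 or less in the Arc and VMH, *Hcrtr1* was highest in the VMH with both probes, and *Hcrtr2* was open on all 8 arrays.

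*Hcrt*, the hypocretin precursor, was high in the LH and the DMH and low in the other nuclei. Its signal was 105971 and 116750 on the LH arrays, 55940 and 51283 on the DMH arrays, 684 and 275 on the VMH arrays, and 188 and 241 on the Arc arrays. The probe was measured on all 8 arrays, and no array of a nucleus overlapped with those of another. The mean was 111361 ± 7621 in the LH (SD, n = 2), 53611 ± 3293 in the DMH, 480 ± 289 in the VMH, and 215 ± 37.6 in the Arc. The LH was thus 519 times the Arc and 232 times the VMH by means, and the DMH was 112 times the VMH.

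In the fit the LH exceeded the Arc by 9.03 (SE 0.41, adjusted p = 0.000343) and the VMH by 8.0 (adjusted p = 0.000386). The DMH exceeded the Arc by 7.97 (adjusted p = 0.00054) and the VMH by 6.95 (adjusted p = 0.000815). These differences were larger than the spread between arrays. The step from the DMH to the LH was 1.05 (SE 0.41, 95% interval 0.09 to 2.02, adjusted p = 0.29), a ratio of means of 2.08. Both LH arrays lay above both DMH arrays, with 1.89 times between the nearest pair, yet the difference did not pass the test over all probes. The VMH exceeded the Arc by 1.03 (adjusted p = 0.218), which did not pass either, so the order of the lower pair of nuclei is not settled. The VMH arrays differed from each other by 2.49 times in *Hcrt*, against 1.28 times in the Arc, 1.1 times in the LH, and 1.09 times in the DMH.

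*Pmch*, the MCH precursor, was likewise highest in the LH and the DMH, but it was also clearly measured in the VMH. Its signal was 17650 and 17005 on the LH arrays, 16253 and 11631 on the DMH arrays, and 3938 and 3140 on the VMH arrays. On the Arc arrays it was 97.5 and 71.1, in neither case well above background. The ranges of the nuclei did not overlap, although LH2 was only 1.05 times DMH1. The mean was 17328 ± 456 in the LH, 13942 ± 3268 in the DMH, 3539 ± 565 in the VMH, and 84.3 ± 18.7 in the Arc (SD, n = 2 each).

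Because neither Arc array measured *Pmch*, ratios to the Arc are bounds, computed against the higher of the probe's own signal and the lowest measured signal of each Arc array. By this bound the LH was at least 153-fold higher than the Arc (adjusted p = 0.000227), the DMH at least 122-fold higher (adjusted p = 0.000286), and the VMH at least 31.1-fold higher (adjusted p = 0.000384). The adjusted p-values belong to the fitted differences, which used the dim Arc signals as they were, and not to the bounds. The LH exceeded the VMH by 2.30 (SE 0.27, adjusted p = 0.00686), a ratio of means of 4.90, with an adjusted p of 0.0605 by the unmoderated test. The DMH exceeded the VMH by 1.97 (adjusted p = 0.0165), and this call was lost without VMH1 (adjusted p = 0.0739), without VMH2 (adjusted p = 0.109), and without DMH1 (adjusted p = 0.0996). The LH and the DMH differed by 0.33 (95% interval -0.30 to 0.96, adjusted p = 0.561), which did not pass the test.

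*Parpbp*, a gene for a partner of the DNA repair enzyme PARP1, overlaps *Pmch* on the other strand in the reference. Its probe gave 249 on LH1, where it was measured, and 81.4 on LH2, where it was not. On the 6 other arrays it was not measured and lay between 18.8 and 30.3. Any part of *Parpbp* in the *Pmch* signal was not tested.

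Both precursors were higher in the LH and in the DMH than in both the Arc and the VMH, each by an adjusted p under 0.05. This held for 38 of the 28896 probes (0.132%), from 29 named genes. The profiles of the precursors over the 8 arrays had a Pearson r of 0.834 and a root-mean-square difference of 2.25 in mean-centred log2 signal, given as a description of arrays that also share their nuclei. The VMH was at least 31.1-fold higher than the Arc in *Pmch* and 2.24 times the Arc by means in *Hcrt*, and the difference between these values was not tested.

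**Figure D2:**
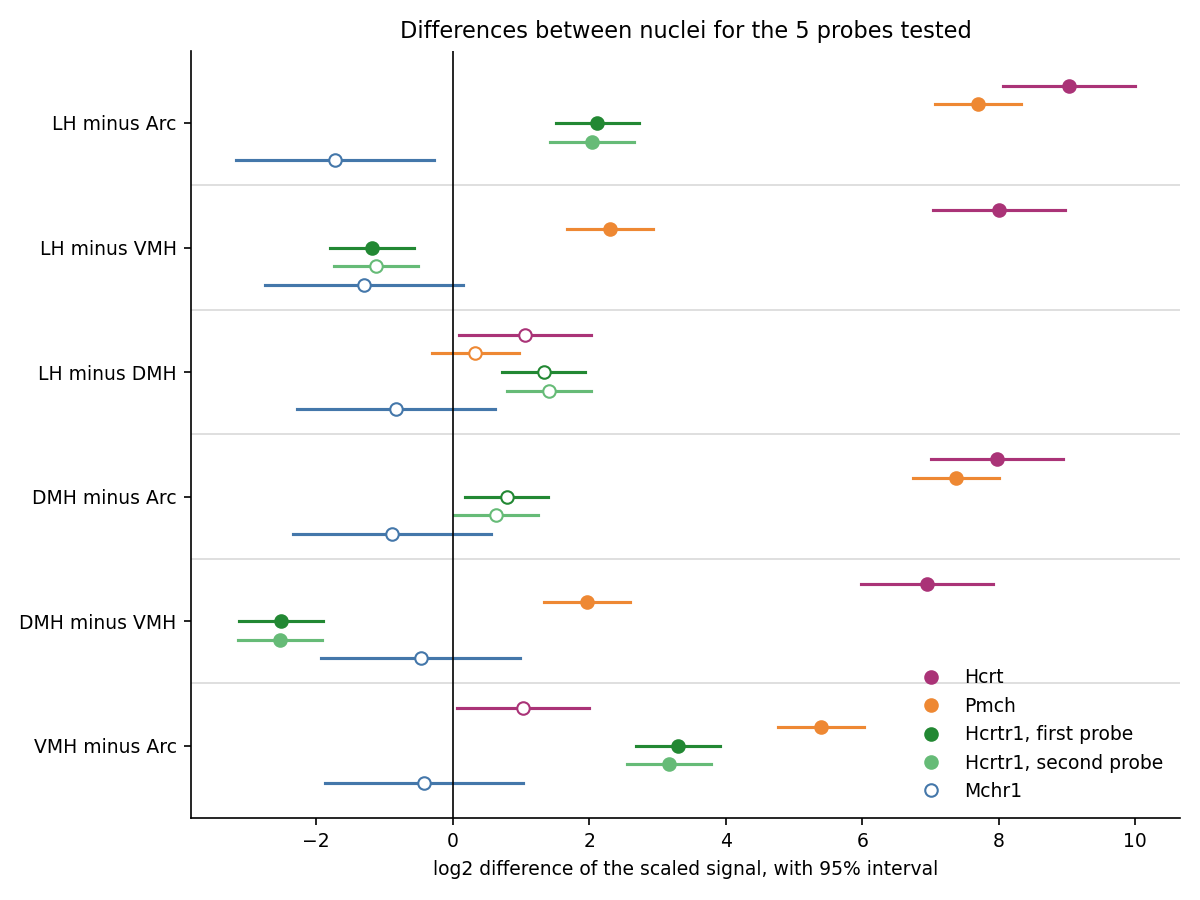
Log2 differences between pairs of nuclei (x axis) for the 5 member probes tested, with 95% intervals from the limma fit. Filled points have an adjusted p under 0.05 and open points do not, and points for *Pmch* against the Arc rest on Arc signals not well above background. The *Hcrt* differences of the LH and the DMH from the Arc and the VMH lie at 6.95 to 9.03, the *Hcrtr1* probes lie below 0 for the LH and the DMH against the VMH, and all points for the LH against the DMH are open.

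*Hcrtr1*, the receptor that prefers orexin-A, had its highest signal in the VMH. With the first probe it was 4169 and 3837 on the VMH arrays, 1838 and 1689 on the LH arrays, 563 and 869 on the DMH arrays, and 370 and 444 on the Arc arrays. With the second probe the same arrays gave 3744 and 3608, 1780 and 1591, 509 and 792, and 373 and 448. Both probes were measured on all 8 arrays, gave the same order of nuclei, and showed no overlap between the arrays of neighbouring nuclei. Their differences between nuclei lay within 0.15 of each other on the log2 scale, with a Pearson r of 0.999 over the 8 arrays. They report on 1 gene in the same samples and are not independent.

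The means with the first probe were 4003 ± 234 in the VMH, 1763 ± 105 in the LH, 716 ± 216 in the DMH, and 407 ± 52.8 in the Arc (SD, n = 2 each). The VMH exceeded the Arc by 3.30 with the first probe (SE 0.26, adjusted p = 0.00131) and by 3.17 with the second (adjusted p = 0.00154). The DMH lay below the VMH, with differences of -2.52 and -2.53 (adjusted p = 0.00612 for both), and the call of the second probe was lost without VMH2 (adjusted p = 0.0521). The LH exceeded the Arc by 2.12 (adjusted p = 0.00489) and 2.04 (adjusted p = 0.00557), where the call of the second probe was lost without Arc1 (adjusted p = 0.0524). In these comparisons both probes were past the threshold, and *Hcrtr1* in the VMH was 9.84 times the Arc and 5.59 times the DMH by means of the first probe.

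The middle of the order was less firm. The LH lay below the VMH by differences of -1.18 with the first probe (adjusted p = 0.0490) and -1.13 with the second (adjusted p = 0.0578), and the call of the first probe was lost when any of the 8 arrays was left out (adjusted p from 0.0549 to 0.233). The LH exceeded the DMH by 1.33 (95% interval 0.72 to 1.94, adjusted p = 0.0763) and 1.41 (adjusted p = 0.0664), neither past the threshold, although both probes passed it under the filter on all 8 arrays and under trended moderation (adjusted p from 0.0342 to 0.0424). The DMH and the Arc differed by 0.79 (adjusted p = 0.302) and 0.64 (adjusted p = 0.441), which did not pass. A probe higher in the VMH than in each other nucleus was found for 156 of the 28896 probes (0.54%), which included the first probe of *Hcrtr1* and not the second.

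*Hcrtr2*, the receptor for both orexins, was not well above background on any of the 8 arrays. Its signal ranged from 22.7 on DMH2 to 61.1 on Arc1, under the lowest measured signal of every array. It was left out of the fit by the filter, and no ratio is given. When all probes were fitted with no filter, its adjusted p over the 6 pairs of nuclei ranged from 0.408 to 0.988. *Hcrtr2* was thus not detectable with this probe in these samples.

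*Mchr1*, the MCH receptor, was dim. It was 250 and 336 on the Arc arrays, 200 and 234 on the VMH arrays, 196 and 125 on the DMH arrays, and 179 on LH1. On LH2 it was 43.3 and not well above background. The means ran from 293 ± 60.8 in the Arc through 217 ± 24.7 in the VMH and 160 ± 50.3 in the DMH to 111 ± 95.9 in the LH (SD, n = 2 each). The F-test gave an adjusted p of 0.313, and limma called 0 of 6 pairs, with 1 of 6 at an unadjusted p under 0.05 and 0 of 6 called by the unmoderated test. The LH against the Arc had an adjusted p of 0.132, and the fitted difference of -1.72 used the LH2 signal that was not well above background. It was -0.91 when dim signals were raised to the floor of their array and -0.50 under normexp.

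The LH value of *Mchr1* rested on arrays that differed by 4.13 times. Without LH1 the LH is LH2 alone, on which the probe was not well above background, so that the fitted differences are no measured sizes, and the fit assumes that this array varies like those of the other nuclei. On that assumption the F-test gave an adjusted p of 0.0165, and limma an adjusted p of 0.00709 against the Arc, 0.0152 against the VMH, and 0.0482 against the DMH. The fitted LH minus the DMH was -0.83 with both arrays, -0.02 with dim signals raised, -0.06 under normexp, and 0.20 without LH2 (adjusted p = 0.803). No order of the nuclei in *Mchr1* holds beyond the spread between these arrays.

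Markers of each nucleus and of other cell types were read on the same arrays. *Agrp* and *Pomc*, peptides of the arcuate nucleus, were highest in the Arc, and *Nr5a1*, the transcription factor that defines the VMH, had a mean of 11928 in the VMH and a mean of at most 535 in each other nucleus. The DMH markers *Prdm13*, *Grp*, and *Npvf* were measured on both DMH arrays, with a summed signal of 8377 and 11001, and on LH1 with a sum of 923, but on LH2 none was measured and the sum was 89.5. The paper picked these genes as DMH-enriched from these same arrays, so their height on the DMH arrays is no independent check of that label. *Oxt*, the oxytocin precursor of the paraventricular and supraoptic nuclei, was 8332 on LH2 and 109 on LH1, 6559 on Arc1 and 848 on Arc2, and 1242 on VMH2 and 25.4 on VMH1. *Crh*, another marker listed for the paraventricular nucleus, was high on both LH arrays (4931 and 3623) and both DMH arrays (2026 and 2543), and *Sim1* of the same list was not measured on any array. The LH arrays thus differed from each other in *Oxt* and in the DMH markers, and over the probes tested LH2 had a higher correlation with DMH2 (0.954) than with LH1 (0.938).

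*Hcrt* and *Pmch* are themselves the usual markers of the LH, so they check its label against the Arc and the VMH, and they did not separate it from the DMH on these arrays. The paper checked its dissection by qRT-PCR of *Agrp*, *Nr5a1*, *Hcrt*, and *Crh*, and reports no contamination by neighbouring nuclei. That measure was not compared with the arrays here. *Hcrt* and *Pmch* differed by 1.1 and 1.04 times between the LH arrays, while the DMH markers and *Oxt* differed as above. On the VMH arrays, the higher *Hcrt* of VMH1 (684 against 275) went with *Npvf* at 438 against 72.8 and *Crh* at 265 against 49.4, both measured on VMH1 and not on VMH2. The other DMH markers, *Prdm13* and *Grp*, were measured on neither VMH array, and *Oxt* was higher on VMH2. On LH1 and LH2, the higher *Mchr1* of LH1 (179 against 43.3) went with the higher DMH marker sum given above. The part of these markers in the results was not tested.

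Oligodendrocyte markers were higher in the LH, where their sum was 89469 and 97117 against 9028 to 32775 on the other arrays, and 5 of 5 (*Mbp*, *Mog*, *Mag*, *Mobp*, and *Cnp*) exceeded the Arc in the LH by an adjusted p under 0.05 (all probes in either direction, 9.34%). The LH exceeded the VMH in 4 of 5 (5.28%) and the DMH in 3 of 5 (0.924%). These sums weigh the brightest probes most and are compared only between arrays. On the DMH arrays the oligodendrocyte sum was 23435 and 22438, within the range of the VMH and the Arc. Neuronal markers, summed over 4 of 5 because the *Stmn2* spot of LH1 was an outlier and was left out, lay between 121638 on Arc1 and 169412 on VMH1, with 164356 and 141795 on the LH arrays. Of the 5, *Rbfox3* alone was called by the F-test (all probes, 8.34%), with a mean of 11474 in the VMH and 3169 in the Arc. The LH exceeded the Arc in 2 of 5 (9.34%), *Syt1* (adjusted p = 0.0211) and *Rbfox3* (adjusted p = 0.0275). Astrocyte markers summed to 48180 and 48017 in the LH and between 22914 and 29973 elsewhere, led by *Slc1a2*, while *Gfap* was 5036 on average in the Arc and 2761 in the LH, and *Aqp4* was 3702 and 3736. Among the astrocyte genes the LH exceeded the Arc in 2 of 5 (9.34%), *Aldh1l1* (adjusted p = 0.0172) and *Slc1a2* (adjusted p = 0.0121). Endothelial markers summed to 4269 and 5875 in the LH and between 2317 and 3919 elsewhere, and microglial markers to 11077 and 13221 against 7814 to 10257. Of the endothelial and microglial genes tested *Flt1* alone was called by the F-test (all probes, 8.34%). Not all members followed the sums, with *C1qa* at 2495 on average in the Arc and 1602 in the LH. *Tek* was 91.9 on LH1 and 562 on LH2, against means of 436 to 510 in the other nuclei, so its LH arrays lay on both sides. The tanycyte and ependymal sum was 2712 and 2620 in the Arc and between 930 and 1487 elsewhere. *Rax* was 1549 on average in the Arc and 74.2 to 99.3 in the other nuclei, and it entered the fit only through the Arc. *Ccdc153* did not follow, at 1015 in the Arc and 1023 in the VMH (F-test adjusted p = 0.872). *Foxj1* and *Tmem212* were not measured on any array. *Pvalb*, a calcium-binding protein of fast-spiking neurons, was 5855 and 7396 on the LH arrays and at most 430 on the others. It was listed here for the subthalamic area and zona incerta, while the paper, from these same arrays, names it among the top genes of the LH. The part of these cell types in the LH values of *Hcrt* and *Pmch* was not tested.

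**Figure D3:**
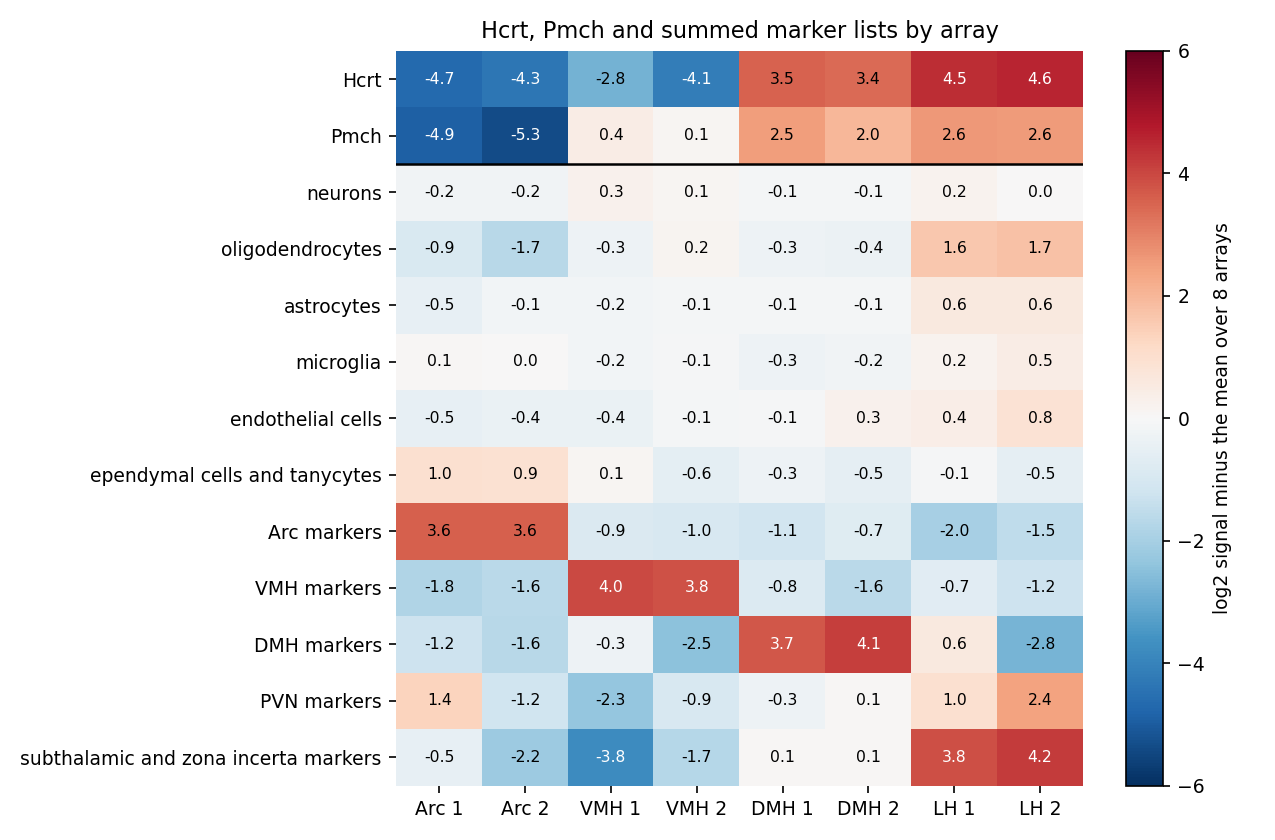
*Hcrt*, *Pmch*, and the summed signal of each marker list on the 8 arrays, as log2 signal minus the mean over the 8 arrays (colour and printed values). The row for the subthalamic area and zona incerta is *Pvalb* alone, which the paper names among its top genes of the LH. The Arc, VMH, and DMH lists peak on the arrays of their own nucleus, LH1 and LH2 differ in the DMH list (0.6 and -2.8), and *Hcrt* is at 4.5 and 4.6 on LH1 and LH2. The paper picked the genes of the DMH list from these same arrays, so the peak of that list was given in advance.

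Of 8 genes for prohormone processing, by which cells make and store peptides, 2 differed among the nuclei by the F-test (all probes, 8.34%), namely the prohormone convertases *Pcsk1* and *Pcsk2*. *Pcsk1*, which cuts precursors in the regulated secretory pathway, was 2944 ± 148 in the LH, 1265 ± 60.9 in the DMH, 997 ± 10.4 in the VMH, and 1687 ± 203 in the Arc, and the LH exceeded the Arc by 0.81 (adjusted p = 0.0475), the VMH by 1.56 (adjusted p = 0.0083), and the DMH by 1.22 (adjusted p = 0.0470). *Pcsk2* was 22871 ± 1851 in the LH and 10197 ± 2228 in the Arc, a difference of 1.18 (adjusted p = 0.0269), but its highest mean was in the VMH at 23474, which exceeded the Arc by 1.22 (adjusted p = 0.0315). *Scg2*, a granin of dense-core vesicles, was 84700 ± 5816 in the LH and between 53598 and 64672 on average elsewhere, with an F-test adjusted p of 0.284. The median of the list for the LH minus the mean of the other nuclei was 0.29, against -0.02 over all probes tested.

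Of 8 genes reported in hypocretin neurons, 7 passed the filter and 4 differed among the nuclei by the F-test (all probes, 8.34%), *Nptx2*, *Lhx9*, *Dlk1*, and *Slc17a6*. *Lhx9*, a LIM homeobox factor of these neurons, was 374 and 861 on the LH arrays and 292 and 479 on the DMH arrays, and was not measured in the VMH (98.9 and 95.2) or the Arc (76.4 and 82.1). The LH was at least 5.02-fold higher than the Arc and at least 5.26-fold higher than the VMH, by the bound used for *Pmch*. The fitted differences, and not the bounds, had an adjusted p of 0.00909 against the Arc and 0.0198 against the VMH. The DMH against the Arc had an adjusted p of 0.0639 and did not pass. *Lhx9* entered the fit only through the LH and the DMH, where it was measured, so its calls are not independent of the filter. *Nptx2*, a neuronal pentraxin, was highest in the VMH at 48867 on average, above the LH at 17051. *Pdyn*, the dynorphin precursor that hypocretin neurons also make, was 1477 on average in the LH and between 2812 and 3333 elsewhere, with an F-test adjusted p of 0.155. *Dlk1*, a Notch ligand homologue, was 31620 in the LH, 27343 in the DMH, 37155 in the Arc, and 8092 in the VMH, where it was lower than in the LH by 1.93 (adjusted p = 0.0116). The median LH difference of the list was 0.22.

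Of 7 genes reported in MCH neurons, *Nucb2* had no probe under that symbol, *Tacr3* was not measured, and the other 5 all differed among the nuclei by the F-test (all probes, 8.34%), though not in the same direction. *Otx1* and *Nptx1* passed the filter only through the nucleus where each was high, so their calls are not independent of the filter and are no support for the count. *Otx1*, a homeobox factor, was measured only on the LH arrays, at 930 and 337. *Gad1*, which makes GABA, was 9577 in the LH, 7952 in the DMH, and 7343 in the Arc on average, and 319 in the VMH, so the LH exceeded the VMH by 4.93 (adjusted p = 0.000386). *Nptx1*, another neuronal pentraxin, was measured on the VMH arrays only, at 345 and 429. *Cartpt*, the CART peptide precursor of many MCH neurons, was 23603 in the LH, 14938 in the DMH, 43884 in the Arc, and 4226 in the VMH. The vesicular glutamate transporter *Slc17a6*, which is in both lists, was highest in the VMH at 9465. The median LH difference of the list was 0.73.

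Of 9 genes for G proteins and effectors that couple these receptors, 9 passed the filter and *Plcb1* alone differed by the F-test (all probes, 8.34%). *Plcb1*, a phospholipase C downstream of Gq, was 4427 in the VMH, 4280 in the LH, 2958 in the DMH, and 1221 in the Arc on average. The LH exceeded the Arc by 1.81 (adjusted p = 0.00433). *Gnai2* and *Gnai1*, the next in size of LH difference, gave F-test adjusted p of 0.363 and 0.412. The median LH difference of the list was 0.20.

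Among reported regulators, *Nkx2-1* was lower in the LH than in the Arc by a log2 difference of -1.43 (adjusted p = 0.0238) and than in the VMH by -1.99 (adjusted p = 0.0116). It was 973 and 939 on the LH arrays, 2173 and 1794 on the DMH arrays, 4902 and 2943 on the VMH arrays, and 2533 and 2602 on the Arc arrays. *Sirt1*, the NAD-dependent deacetylase, was 599 to 891 on average in the 4 nuclei, with an F-test adjusted p of 0.86. *Foxa2*, a forkhead factor that activates both precursors, was not measured on any array, with signals of 19.0 to 28.2, and *Ebf2* was not measured either.

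The genes with profiles most like those of *Hcrt*, *Pmch*, and *Hcrtr1* were found by the root-mean-square difference of mean-centred log2 signals over the 8 arrays. They are given as a description, since arrays of a nucleus share its other differences. For *Hcrt* these were *Ebf3* (0.79, r = 0.985), *Crh* (1.21, r = 0.979), *Nrn1* (1.23, r = 0.984), *Trh* (1.28, r = 0.958), and *Nts* (1.90, r = 0.962). *Ebf3*, a transcription factor, was 3043 and 5175 in the DMH and 3287 and 3818 in the LH, and was not measured in the Arc or the VMH. *Crh*, *Trh*, and *Nts* are precursors of corticotropin-releasing hormone, thyrotropin-releasing hormone, and neurotensin. All 5 were measured on all DMH and LH arrays and on no Arc array, and *Crh* alone was measured in the VMH, on VMH1.

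For *Pmch* the nearest profiles were *Islr2* (1.27, r = 0.974), *S1pr5* (1.29, r = 0.924), *Epha8* (1.38, r = 0.986), *Crh* (1.42, r = 0.894), and *Nr2f2* (1.42, r = 0.896). *Islr2* was 7646 on average in the LH, 5637 in the DMH, 2904 in the VMH, and 277 in the Arc. *S1pr5*, a sphingosine phosphate receptor of oligodendrocytes, was 2688 on average in the LH, 418 in the DMH, and 352 in the VMH, and *Nr2f2*, a nuclear receptor, was highest in the VMH at 8057. *Epha8*, an ephrin receptor, was 844 in the LH, 456 in the DMH, and 295 in the VMH, and was not measured in the Arc. *Islr2* and *Epha8* thus had the order of means of *Pmch*, as did *S1pr5*, while *Nr2f2* did not.

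For *Hcrtr1* the nearest profiles lay closer, with *Gamt* at 0.24 (r = 0.988), *Glra1* at 0.29 (r = 0.976), *Kcnk4* at 0.35 (r = 0.962), *Gabrd* at 0.38 (r = 0.955), and *Arpp21* at 0.38 (r = 0.965). Root-mean-square differences grow with the range of a profile, which was smaller for *Hcrtr1* than for *Hcrt* and *Pmch*. *Gamt*, an enzyme of creatine synthesis, was 9610 on average in the VMH, 4240 in the LH, 1969 in the DMH, and 1223 in the Arc. *Glra1*, a glycine receptor subunit, was 7292 in the VMH, 3381 in the LH, 1789 in the DMH, and 882 in the Arc. The order of the nuclei in both was that of *Hcrtr1*.

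**Figure D4:**
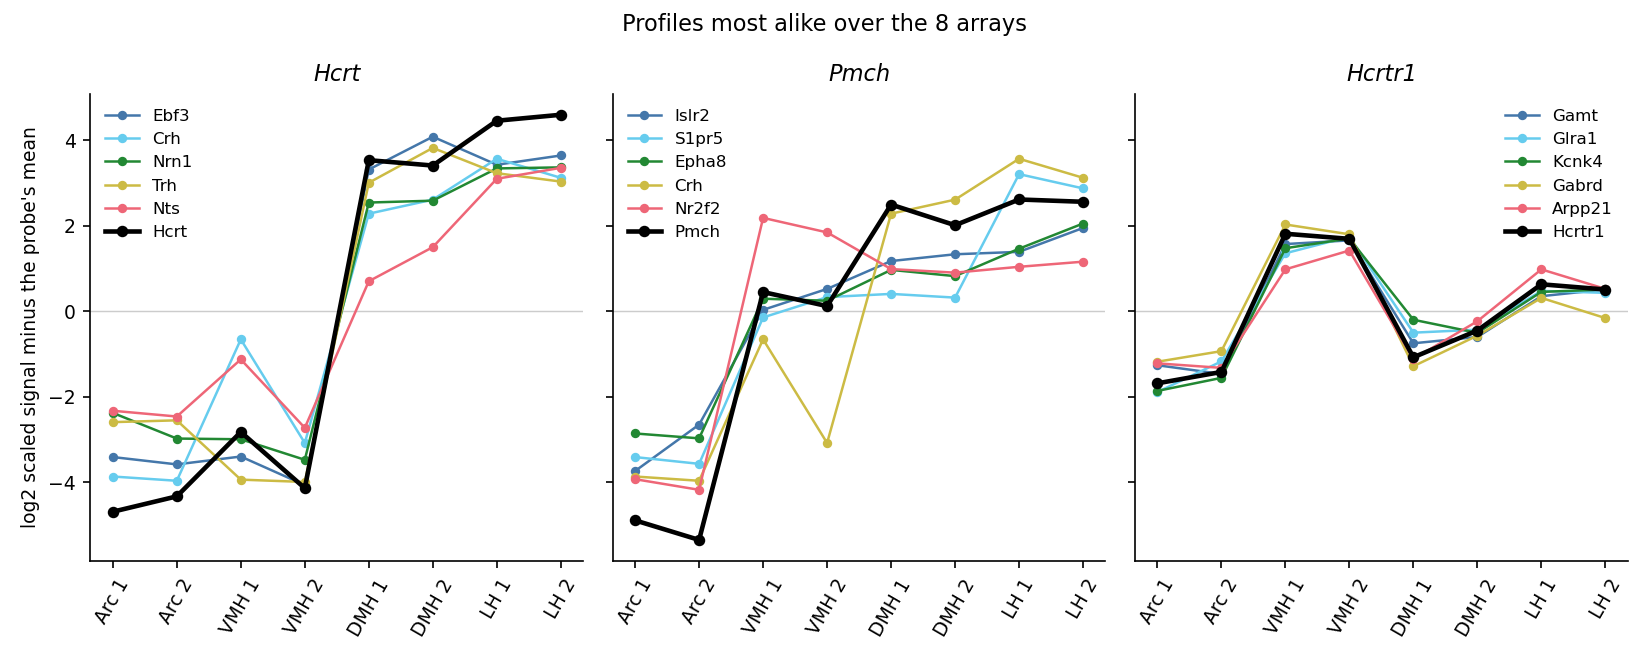
Log2 scaled signal minus the mean of the probe (y axis) on the 8 arrays (x axis) for *Hcrt*, *Pmch*, and *Hcrtr1* in black and the 5 genes most alike in colour, with lines only as a guide. The *Hcrt* group steps up between the VMH and the DMH arrays, the *Pmch* group steps up between the Arc and the VMH arrays or later, and the *Hcrtr1* group peaks on VMH1 and VMH2.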

How the data were processed

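Gene expression was measured on 8 one-color Agilent mouse arrays of 1 slide and 1 scan, 2 for each nucleus. RNA was amplified as a whole transcriptome, labelled, and hybridized. The authors extracted spot intensities with Agilent Feature Extraction, in version 11.5.1.1 by the submitters' processing notes and 10.7.3.1 by the file headers. Per the file headers, the processed spot signal deposited is a linear intensity from which background was subtracted, with no scaling from one array to another. A value table for the whole series gives whole-number intensities per probe, which lay within 0.51 of the probe means here for 99.7% to 99.8% of probes on each array. The dye is Cy3 in the labels but Cy5 in the methods, while the scanner columns are those of the red channel.

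Outlier spots were left out, spots were averaged per probe, each array was divided by its 75th percentile (815 to 1239 before scaling), and log2 was taken. Scaling brought the median log2 difference between the DMH and the Arc from 0.46 to -0.02. Symbols came from RefSeq accessions (26756 of 28390 probes, 94.2%) in the GRCm38.p6 annotation. limma 3.58.1 in R 4.3.3 fitted a mean per nucleus, with 4 residual and 3.02 prior degrees of freedom, and the Benjamini-Hochberg method adjusted each comparison over all probes tested. The threshold was 0.05. The number of arrays and signal over background limit the precision. The unmoderated test is a one-way test on the same log2 values. The fit was tested on simulated data.

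Other genes were represented by their brightest probe. From each list, the 3 genes were named whose LH level departed most from the average over the Arc, VMH, and DMH, with *Nkx2-1*, *Sirt1*, *Foxa2*, *Parpbp*, and genes whose count was small, and the 5 most alike genes for members whose highest mean was at least 4 times the lowest. The members and lists were chosen with earlier results of these data known, and the genes named beyond this rule after their values were seen. Some genes of the marker lists are not reported here. The alternatives are listed with their effect in the closing section.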

Additional observations from a re-analysis of the deposited data

How the results depend on the processing

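The number of arrays and signal over background limit these results, most of all for *Mchr1* and *Hcrtr2*. Alternatives changed the scaling (none or quantile), the background (normexp), the source (series value table), the filter (none, or well above background on 8 of 8 arrays), the outlier spots (retained), dim values (set to the lowest measured signal), the moderation (trended and robust, or an unmoderated one-way test), the arrays fitted (only the 2 nuclei compared, or 1 array fewer), and the replicate block. The 4 member probes that differed among the nuclei became 4 to 5 with each array left out, and the 16 calls between pairs of nuclei became 13 to 18. In the other alternatives the first count was 3 to 4, with 3 under the filter on 8 of 8 arrays, and the second 10 to 19, with 10 by the unmoderated test and 19 under trended and robust moderation. *Hcrt* kept its calls for the LH above the Arc and the VMH in every alternative run, with 7.34 to 8.66 above the VMH and 8.85 to 9.21 above the Arc when an array was left out. *Pmch* in the LH minus the VMH stayed at 2.30 by the unmoderated test with an adjusted p of 0.0605, and ranged from 2.14 to 2.46 with arrays left out. *Hcrt* in the LH minus the DMH passed the threshold in no alternative, with values of 0.73 to 1.16 and 0.98 to 1.12 with arrays left out, and for *Pmch* the same difference was 0.01 to 0.33 and 0.09 to 0.57. *Mchr1* in the LH minus the DMH turned to 0.20 without LH2 and its fitted value was -1.85 without LH1, no measured size, since the LH array left was not well above background. A further 23 values of 6 results lost a call and 13 values of 7 results gained one, with the same direction. Among these, the LH minus the DMH of *Hcrtr1* passed the threshold with both probes under the filter on all 8 arrays and under trended moderation (adjusted p = 0.0342 to 0.0424) and with the second probe under normexp (adjusted p = 0.0352), and the LH minus the VMH of its second probe passed under 4 alternatives. *Pmch* and *Mchr1* could not be fitted under the filter on all 8 arrays. The causes were not tested. Replicate numbers coincide with the row of the slide, and samples with the same number had deviations correlated at -0.03 to 0.26, so the numbers were not taken as pairs. With the replicate block the calls between pairs of nuclei were 15, the call lost being that of the first *Hcrtr1* probe for the LH minus the VMH (adjusted p = 0.0605).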
